A study of Mus musculus with 12 samples.

Results

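The 10 genes described here are core parts of the circadian clock and close outputs of it, namely *Arntl*, *Clock*, *Per1*, *Per2*, *Cry1*, *Cry2*, *Nr1d1*, *Nr1d2*, *Dbp* and *Bhlhe40*. They were taken by name from the 54532 genes in the files. All 10 were listed, and 9 of them were among the 11550 genes with a mean of at least 1 FPKM (fragments scaled by gene length and library size) over the 12 libraries. *Per2* lay below that level.

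The RNA came from primary CD8+ T cells of C57BL/6 mice, taken from spleen and peripheral lymph nodes, activated in culture and given Accell siRNA, and each group had 3 libraries. The siNTC cells, labelled WT, received a non-targeting control siRNA and the DMSO vehicle, and the siNTC+TVA cells received the same siRNA and 20 μM *trans*-vaccenic acid (TVA), a fatty acid of ruminant milk and meat, for 24 h. The siCreb1 cells, labelled Creb1 KD, received an siRNA against *Creb1* and the vehicle, and the siCreb1+TVA cells received that siRNA and TVA. *Creb1* encodes CREB, a transcription factor that acts below cyclic AMP, and the series asked how its knockdown alters the response to TVA. All groups were taken at a single time of 24 h, the hour of the day at harvest is not given in the sources used here, and the labels do not say whether the 3 libraries of a group came from separate mice or cultures, so the p-values measure the spread between these libraries, which may be technical.

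In the clock, the proteins of *Arntl* (BMAL1) and *Clock* bind E-box DNA together and switch on the *Per* and *Cry* genes, whose proteins return to the nucleus and inhibit the pair. The nuclear receptors REV-ERBα and REV-ERBβ, encoded by *Nr1d1* and *Nr1d2*, repress *Arntl*, *Dbp* is a bZIP activator driven through E-boxes, and *Bhlhe40* (DEC1) is an E-box repressor that is also induced when T cells are activated. *Per1* and *Per2* are known targets of CREB, which binds cyclic AMP response elements (CREs) and links outside signals to the clock.

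Of the 10 members, 8 had at least 1 promoter window in the RefSeq table (GRCm38.p6, 12 windows, each 250 bases before to 50 bases after a start). *Per2* and *Bhlhe40* did not. The 4 stretches below are shown because they hold letters of elements that the clock and CREB are known to read, the E-box in full and the others in part. AGGTCA is only the core of such an element, and windows of *Clock*, *Arntl* and *Per1* held it too. The stretches are printed 5′ to 3′ on the strand of the gene, with the matched letters in capitals.
*Per1* E-box, chr11:69098758-69098813, plus strand: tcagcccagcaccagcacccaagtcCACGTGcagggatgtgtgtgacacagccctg
*Per1* CRE-like, chr11:69099995-69100051, plus strand: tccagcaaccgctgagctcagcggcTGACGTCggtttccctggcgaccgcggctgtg
*Cry1* E-box, chr10:85185084-85185139, minus strand: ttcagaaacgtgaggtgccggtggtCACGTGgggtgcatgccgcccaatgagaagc
*Nr1d2* AGGTCA, chr14:18239153-18239208, minus strand: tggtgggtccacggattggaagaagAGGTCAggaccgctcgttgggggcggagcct

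Both *Per1* stretches lie within the *Per1* gene in GENCODE vM21 and outside its exons, since each precedes a RefSeq start inside the longer gene. The *Cry1* and *Nr1d2* stretches lie outside annotated genes. Both strands of all 32851 windows were searched for each set of letters. The E-box letters CACGTG were in 2 of the 12 member windows, those of *Per1* and *Cry1*, and in 7.15% of all windows. The full CRE letters TGACGTCA were in 0 of the 12 and in 1.79% of all windows. The CRE letters without the last base, TGACGTC, which every full CRE also holds, were in the downstream *Per1* window, 132 bases before its start, and in 3.21% of all windows. The short CRE form TGACG, which the longer forms contain, was in 4 of the 12 member windows against 20.8% of all. The D-box form TTATGCAA was in 1 member window, that of *Per1*, against 0.743% of all, and TTATGTAA was in 0 against 0.938%. AGGTCA, the core letters that REV-ERB and ROR receptors read, was in 4 of the 12 member windows against 16.3% of all. These matches describe letters in a window and no binding was measured.

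Recovered reads ranged from 16660234 to 20758033 in the 6 libraries with siNTC and from 20760297 to 24602484 in the 6 with siCreb1. Every knockdown library was thus deeper than every control library, and the part of depth in the knockdown comparisons was not tested. *Creb1* lay between 10.3 and 12.4 FPKM in the 6 libraries with siNTC and between 1.17 and 1.81 FPKM in the 6 with siCreb1 (exact permutation test over 924 divisions, two-sided, p = 0.00216). The 7 CD8 T cell markers (*Cd3e*, *Cd3d*, *Cd3g*, *Cd8a*, *Cd8b1*, *Lck*, *Cd28*) summed to 2164 to 2198 FPKM with siNTC and 2054 to 2098 FPKM with siCreb1. The 14 markers of other cells summed to 14.8 to 15.2 FPKM in siNTC, 12.5 to 14.5 in siNTC+TVA, 11.8 to 13.6 in siCreb1 and 15.7 to 17.1 in siCreb1+TVA, with *Hbb-bs* at 0 in every library. Their part in the results was not tested, and in bulk RNA fewer cells of a type and less RNA per cell cannot be told apart.

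The clock genes were expressed at low to moderate levels that varied little. On the length-scaled FPKM scale, *Nr1d2* was the highest with a mean of 14.0 over the 12 libraries and a range of 12.7 to 15.7, followed by *Cry1* with a mean of 11.98 and a range of 10.6 to 14.2. The ranges of these neighbours overlapped. *Per1* came next, with a mean of 8.62 FPKM and a range of 7.67 to 9.47 that met neither neighbour's. *Bhlhe40* (5.56 to 7.39 FPKM) and *Dbp* (4.95 to 7.28 FPKM) overlapped. *Cry2*, *Clock*, *Arntl* and *Nr1d1* had overlapping ranges with means of 2.90, 2.69, 2.62 and 2.40 FPKM. *Per2* was the lowest, with a mean of 0.637 FPKM and 47 to 116 reads per library. The highest library was between 1.22 times (*Clock*) and 1.63 times (*Nr1d1*) the lowest among the 9 tested members, and 2.83 times for *Per2*.

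The spread between libraries of a group was larger than counting error in every member. The within-group coefficient of variation was smallest for *Nr1d2*, at 3.64% against 2.52% from counting alone at a mean of 1578 reads. It was 5.55% against 3.15% for *Per1* and 13.5% against 8.07% for *Nr1d1*. For *Per2*, with a mean of 77.1 reads, it was 24.9% against 11.4%. The smallest differences could therefore be seen for *Nr1d2* and only large ones for *Per2* and *Nr1d1*.

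**Figure D1:**
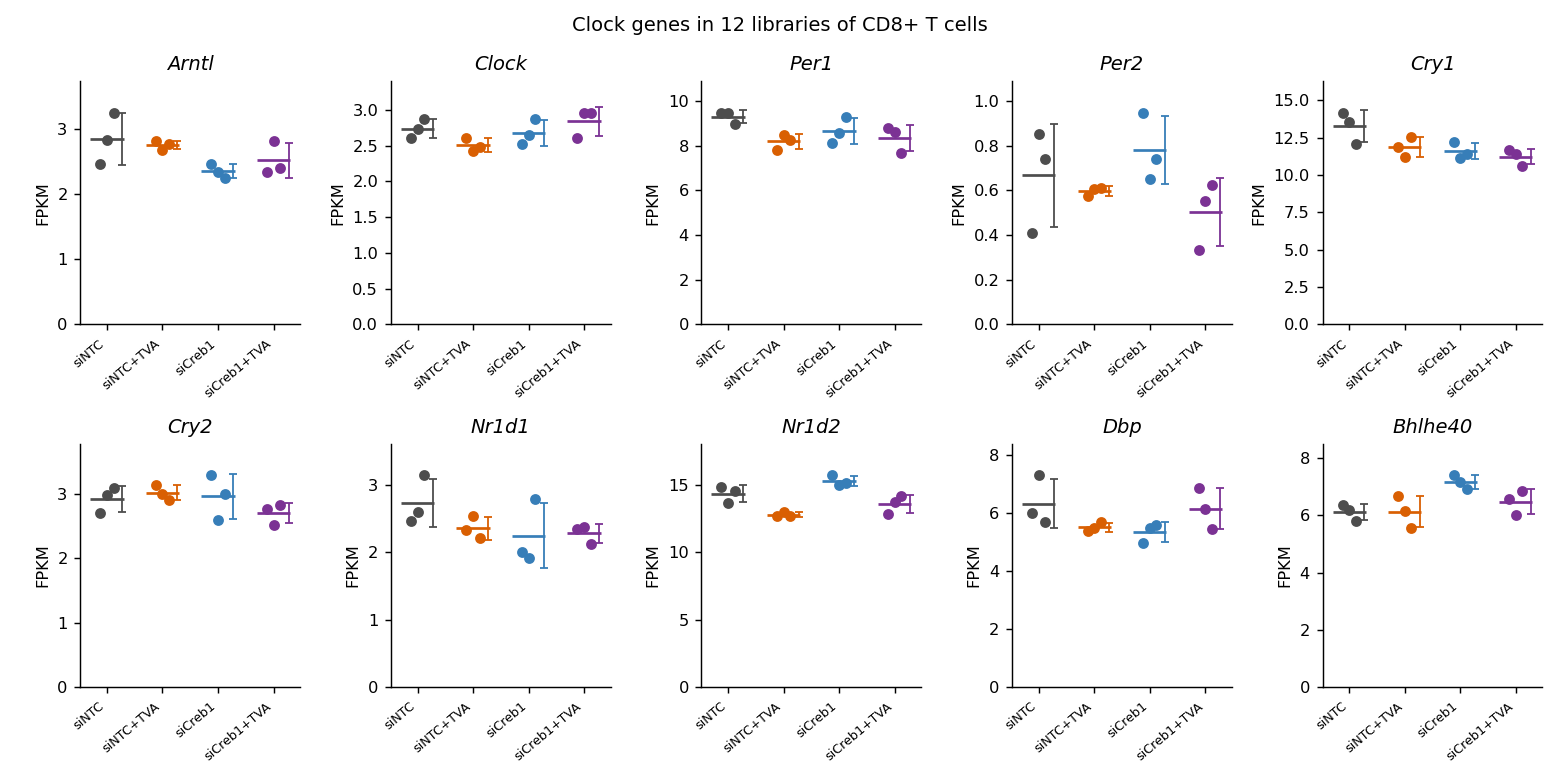
FPKM (vertical axis, from 0, a separate scale per gene) of the 10 clock genes in the 4 groups; points are the 3 libraries of a group, horizontal lines their means and bars the SD. *Nr1d2* lies lower in the libraries with TVA than in those without TVA for each siRNA, and *Per1* in siNTC cells lies at 8.96 or more without and at 8.496 or less with TVA.

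In siNTC cells 7 of the 9 tested members had a lower mean with TVA, and 5 of these means were 10.5% to 13.7% lower (*Cry1*, *Nr1d2*, *Per1*, *Dbp* and *Nr1d1*). Of the 9 members 1, *Nr1d2*, was lower at an adjusted p under 0.05 and 0 were higher (limma on log2(FPKM + 1), Benjamini-Hochberg adjusted over all 11550 genes), against 7.38% of all genes called in this comparison. By limma-voom 1 was called too (*Nr1d2*), against 8.77% of all genes. The median difference of the 9 was −0.15 on the log2 scale against −0.01 over all tested genes. The libraries of the 2 groups did not overlap for 3 of the 9 members (*Per1*, *Nr1d2* and *Dbp*), against 23.9% of all genes. At an unadjusted p under 0.05 in limma there were 3 (*Per1*, *Cry1* and *Nr1d2*), against 2417 of all 11550 genes.

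*Nr1d2* gave 14.9, 13.7 and 14.5 FPKM in the siNTC libraries and 12.7, 12.99 and 12.7 FPKM in the siNTC+TVA libraries. Every TVA library lay below every control library. The difference was −0.16 on the log2(FPKM + 1) scale (SE 0.0415, 95% interval −0.25 to −0.06, limma adjusted p = 0.0485), which is a mean 11% lower. The call stood close to the threshold, and the adjusted p ranged from 0.0334 to 0.139 over 20 alternative analyses and was above 0.05 in 14, while the difference stayed between −0.19 and −0.13. Of the 12 analyses without 1 library, 3 kept the call, those without siNTC replicate 2 or siCreb1+TVA replicate 1 or 3, and in the other 9 the adjusted p was 0.06 to 0.139.

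In siCreb1 cells *Nr1d2* gave 15.7, 15.0 and 15.1 FPKM without TVA and 12.8, 13.7 and 14.1 FPKM with it. The groups again did not overlap and the mean was 11.1% lower. The log2 difference was −0.16 (95% interval −0.25 to −0.07) with a limma adjusted p of 0.193, so the call was not made in this arm. The difference between the arms was −0.003 with an interval of −0.13 to 0.13 (interaction, limma adjusted p = 0.99). The TVA effect averaged over both arms, a contrast added after the data were seen, was −0.16 for *Nr1d2* (SE 0.0294, 95% interval −0.22 to −0.09, limma adjusted p = 0.0108), and its adjusted p was between 0.00268 and 0.0311 in the 19 alternatives. In this average 1 of 9 members was called, lower, against 5.55% of all genes, and limma-voom also called 1 (*Nr1d2*) against 7.86%.

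*Per1* was 9.46, 9.47 and 8.96 FPKM in siNTC cells and 7.80, 8.496 and 8.28 FPKM with TVA. The 2 groups did not overlap and the mean was 11.9% lower with TVA. The log2 difference was −0.16 (SE 0.0575, 95% interval −0.29 to −0.04), with an adjusted p of 0.127 from limma and of 0.09 to 0.29 over its alternatives, so it did not pass the test. *Per1* is also in a list the study selected on these samples, so its direction here is not independent evidence.

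In siCreb1 cells *Per1* was 8.12, 8.58 and 9.26 FPKM without TVA and 8.77, 8.60 and 7.67 FPKM with it. These groups overlapped. The difference was −0.05 (95% interval −0.17 to 0.08, limma adjusted p = 0.87), and the difference between arms was 0.12 (95% interval −0.06 to 0.30, limma adjusted p = 0.569).

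*Per2*, the paralog of *Per1*, was 0.411, 0.854 and 0.741 FPKM in siNTC and 0.573, 0.606 and 0.613 FPKM in siNTC+TVA cells. It was 0.947, 0.650 and 0.742 FPKM in siCreb1 and 0.334, 0.553 and 0.626 FPKM in siCreb1+TVA cells. In siCreb1 cells the TVA libraries lay below the others and the mean was 35.3% lower, but 3 against 3 libraries cannot reach a p under 0.1, which was its value (exact permutation test, two-sided). The same exact permutation test gave p = 0.7 in siNTC cells, where the groups overlapped. With no filter, the reads of *Per2* gave a log2 difference in siCreb1 cells of −0.64 with a 95% interval of −1.22 to −0.06 and an adjusted p of 0.523 (limma-voom).

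*Cry1*, which encodes a repressor of the BMAL1 and CLOCK pair, was 14.2, 13.5 and 12.1 FPKM in siNTC and 11.9, 11.2 and 12.5 FPKM in siNTC+TVA cells. The ranges overlapped, and the difference was −0.15 (95% interval −0.28 to −0.01, limma adjusted p = 0.207). *Cry2*, its paralog, was 2.69 to 3.08 FPKM in siNTC and 2.91 to 3.14 FPKM in siNTC+TVA cells, with a difference of 0.04 (95% interval −0.12 to 0.20). In siCreb1 cells neither gene was called with TVA, at −0.04 for *Cry1* and −0.09 for *Cry2*.

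The activators did not pass the test with TVA. *Arntl* was 2.46, 2.83 and 3.25 FPKM in siNTC and 2.81, 2.68 and 2.76 FPKM in siNTC+TVA cells, a difference of −0.03 (95% interval −0.21 to 0.15). *Clock* was 2.60 to 2.87 FPKM in siNTC and 2.42 to 2.61 FPKM in siNTC+TVA cells, a difference of −0.09 (95% interval −0.23 to 0.04). The span of *Clock* shares 459 bases with *Ube2n-ps1* on the same strand, which was at 1.22 to 3.51 FPKM. In siCreb1 cells the differences were 0.07 for *Arntl* and 0.06 for *Clock*. The intervals bound a change of either gene, on this scale, within 0.25 of 0 in both arms. On recovered reads they reached farther, to 0.32 for *Arntl* in siCreb1 cells and to −0.27 for *Clock* in siNTC cells (limma-voom).

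*Nr1d1*, the other REV-ERB gene, had 129 to 200 reads per library and wide intervals. Its difference with TVA was −0.15 (95% interval −0.38 to 0.08) in siNTC cells and 0.03 (95% interval −0.21 to 0.26) in siCreb1 cells. Its span shares 1075 bases with *Thra* on the opposite strand, which was at 4.25 to 5.81 FPKM, and whether reads were assigned by strand is not given in the sources used here.

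*Dbp* was 5.99, 7.28 and 5.67 FPKM in siNTC and 5.37, 5.46 and 5.67 FPKM in siNTC+TVA cells. It was 4.95, 5.49 and 5.59 FPKM in siCreb1 and 6.85, 6.13 and 5.43 FPKM in siCreb1+TVA cells. The means moved in opposite directions, 12.9% lower with TVA in siNTC and 14.8% higher in siCreb1 cells. The groups did not overlap by a narrow margin in siNTC cells and overlapped in siCreb1 cells. The interaction of *Dbp* was 0.33 (SE 0.125, 95% interval 0.05 to 0.61), with the smallest unadjusted p among the members at 0.024 and an adjusted p of 0.244 (limma), so a difference between the arms did not pass the test. *Dbp* shares 737 bases with *Sphk2* on the opposite strand, which was at 11.2 to 14.3 FPKM.

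*Bhlhe40* was 6.34, 6.19 and 5.80 FPKM in siNTC and 6.66, 6.16 and 5.56 FPKM in siNTC+TVA cells, a difference of 0.0001 (95% interval −0.14 to 0.14). In siCreb1 cells it was 7.39, 7.16 and 6.92 FPKM without and 6.58, 5.997 and 6.84 FPKM with TVA. Those groups did not overlap, with a difference of −0.13 (95% interval −0.27 to 0.01, limma adjusted p = 0.575).

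With TVA in siCreb1 cells 0 of the 9 members were called by limma, against 0.537% of all genes, and limma-voom also called 0, against 1.36%. At an unadjusted p under 0.05 in limma there was 1, *Nr1d2*, against 1106 of all 11550 genes. The libraries did not overlap for 2 of the 9 (*Nr1d2* and *Bhlhe40*), against 17.1% of all genes. For the interaction 0 of 9 were called by limma against 2.24% of all genes and 0 by limma-voom against 3.86%. In limma 1 (*Dbp*) had an unadjusted p under 0.05, against 1657 of all 11550 genes.

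**Figure D2:**
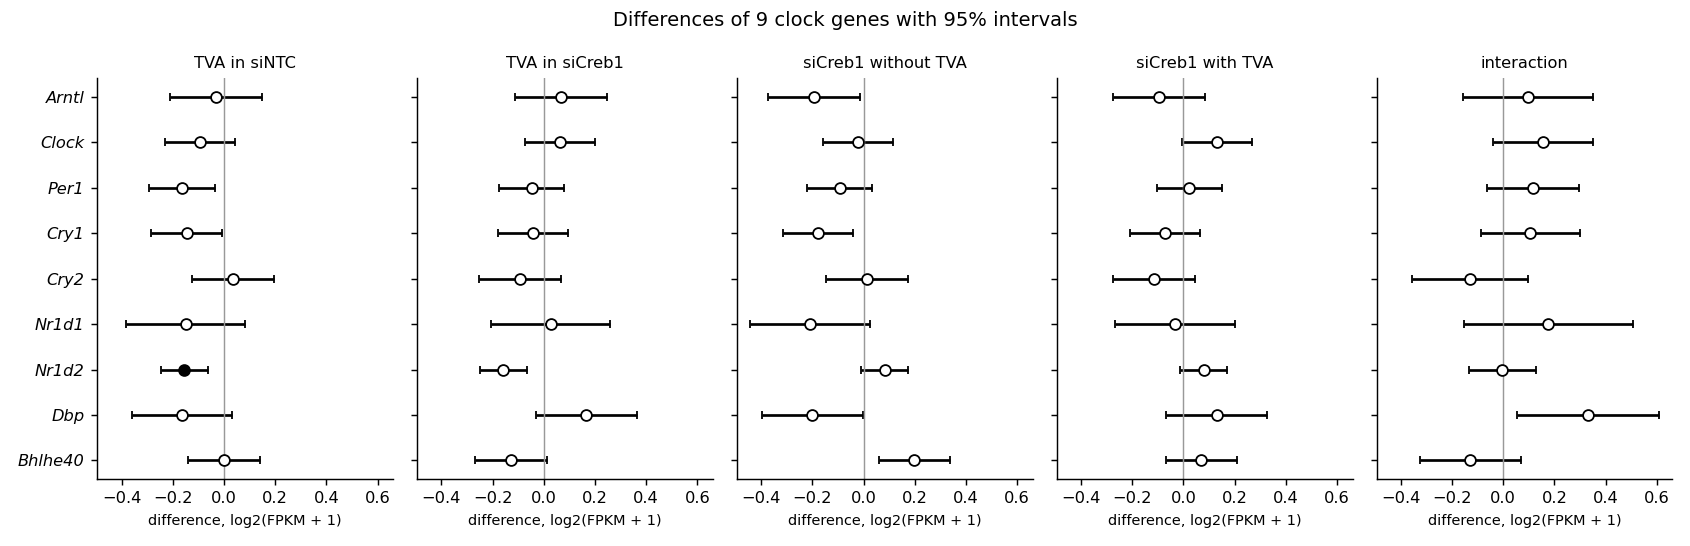
Differences on the log2(FPKM + 1) scale (horizontal axis) of the 9 tested clock genes in 5 comparisons, with 95% intervals from limma; filled points have an adjusted p under 0.05. The filled point is *Nr1d2* with TVA in siNTC cells at −0.16, and the interval farthest from 0 in the interaction is that of *Dbp*.

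Knockdown of *Creb1* to 13.4% of its level without TVA and 13.1% with TVA moved no member past the test. Without TVA 0 of 9 were called by limma against 13.7% of all genes, and limma-voom called 1, against 17.2% of all genes. In limma 4 had an unadjusted p under 0.05 (*Cry1*, *Arntl*, *Dbp* and *Bhlhe40*), against 3248 of all 11550 genes. The libraries did not overlap for 3 of 9 (*Nr1d2*, *Dbp* and *Bhlhe40*), against 31.5% of all genes. With TVA 0 of 9 were called by limma against 10.1% of all genes, and 0 had an unadjusted p under 0.05, against 3029 of all 11550 genes. There limma-voom called 0 against 13.3%, and 1 (*Cry2*) did not overlap against 31.8% of all genes. Averaged over both conditions, a contrast added after the data were seen, 0 of 9 were called by limma against 20.5% of all genes and 2 by limma-voom against 23.5%. In limma 4 intervals excluded 0 on the negative or positive side (*Cry1*, *Arntl*, *Nr1d2* and *Bhlhe40*). Such an interval means an unadjusted p under 0.05, which 3996 of all 11550 genes had.

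*Per1*, a known CREB target, was 9.46, 9.47 and 8.96 FPKM in siNTC and 8.12, 8.58 and 9.26 FPKM in siCreb1 cells. The groups overlapped and the difference was −0.09 (95% interval −0.22 to 0.03, limma adjusted p = 0.325). With TVA it was 0.02 (95% interval −0.10 to 0.15, limma adjusted p = 0.839). A fall of *Per1* by more than 0.22 on this scale without TVA lay outside the interval. For *Per2* the means were 0.669 ± 0.230 FPKM (SD, n = 3) in siNTC and 0.780 ± 0.153 FPKM (SD, n = 3) in siCreb1 cells, and the groups overlapped.

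*Bhlhe40* was the member closest to a call on knockdown. All 3 siCreb1 libraries, at 6.92 to 7.39 FPKM, lay above the siNTC libraries, at 5.80 to 6.34 FPKM. The mean was 17.1% higher, with a difference of 0.20 (SE 0.063, 95% interval 0.06 to 0.34) and a limma adjusted p of 0.0629. It stayed uncalled in 16 of 20 alternative analyses, where the adjusted p reached 0.17. The exceptions were recovered reads, with a difference of 0.25 and an adjusted p of 0.0218 (limma-voom), TPM at 0.0426 (limma), and the fits without siNTC+TVA replicate 1 or 3, at 0.0467 or 0.0411 (limma). With TVA the difference of *Bhlhe40* on knockdown was 0.07 (95% interval −0.07 to 0.21).

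The other members that stood apart from 0 at an unadjusted p under 0.05 without TVA were lower in siCreb1 cells. *Cry1* was 12.2, 11.1 and 11.4 FPKM there, 12.6% below siNTC (difference −0.18, 95% interval −0.32 to −0.04, limma adjusted p = 0.0863). It stayed uncalled in 19 of 20 alternative analyses, where the adjusted p reached 0.279, and was called without siNTC replicate 3 (limma adjusted p = 0.0278). *Arntl* was 2.47, 2.34 and 2.25 FPKM, 17.3% below (difference −0.19, 95% interval −0.37 to −0.01, limma adjusted p = 0.149). *Dbp* was 15.4% below (difference −0.20, 95% interval −0.40 to −0.004, limma adjusted p = 0.169). None of these passed, and with TVA the differences were −0.07, −0.10 and 0.13.

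*Nr1d2* lay 0.08 higher in siCreb1 than in siNTC cells (95% interval −0.01 to 0.18). With TVA it lay 0.08 higher in siCreb1+TVA than in siNTC+TVA cells (95% interval −0.01 to 0.17). *Nr1d1* differed by −0.21 (95% interval −0.44 to 0.02) without TVA. *Clock* differed by −0.02 without TVA and by 0.13 with TVA (95% interval −0.004 to 0.27, limma adjusted p = 0.206). *Cry2* was 2.91 to 3.14 FPKM in siNTC+TVA and 2.52 to 2.82 FPKM in siCreb1+TVA cells, which did not overlap, with a difference of −0.12 (95% interval −0.28 to 0.04).

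The order of the group levels was set by few differences. For *Nr1d2* siCreb1 was highest (15.2 ± 0.378 FPKM), then siNTC (14.3 ± 0.610), siCreb1+TVA (13.6 ± 0.696) and siNTC+TVA (12.8 ± 0.194; SD, n = 3 each), and none of these neighbours differed by limma. The ends of that order did (siNTC+TVA against siCreb1, −0.24, 95% interval −0.33 to −0.15, limma adjusted p = 0.00656), the 1 of 9 members called by limma in that pair of groups against 10% of all genes. *Bhlhe40* in the same pair was at −0.20 with an adjusted p of 0.0748 (limma), and at −0.24 with 0.0358 on recovered reads (limma-voom). For *Cry1* siNTC (13.3 ± 1.08 FPKM; SD, n = 3) was highest and siCreb1+TVA (11.2 ± 0.535 FPKM; SD, n = 3) lowest. That difference was −0.22 (95% interval −0.36 to −0.08, limma adjusted p = 0.034), the 1 of 9 called in that pair against 17.5% of all genes. For *Per1* the order was siNTC (9.30 ± 0.292 FPKM; SD, n = 3), siCreb1 (8.66 ± 0.575), siCreb1+TVA (8.35 ± 0.593) and siNTC+TVA (8.19 ± 0.354), and no pair of groups differed at an adjusted p under 0.05 in limma.

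The members did not move as 1 block over the 12 libraries. Of 36 pairs, Pearson's r of log2(FPKM + 1) ranged from −0.73 (*Arntl* and *Bhlhe40*) to 0.61 (*Per1* and *Dbp*), with a median of 0.11. *Per1* was also like *Nr1d1* (r = 0.59) and *Cry1* (r = 0.58). For deviations from the group means the *Per1* and *Dbp* value was 0.71, and that of *Nr1d2* and *Dbp* was −0.90. These are descriptions over 12 libraries that share groups, and the deviations share the depth and composition of each library. By the same measure the genes most like *Per1* among all tested were *Gpatch4* (r = 0.88), *Trav14n-3*, *2210016L21Rik*, *Gm4482* and *Trmt1* (each r = 0.87), ahead of *Dbp*, which ranked 385. Between 1 and 5 of these 5 genes remained among the first 5 in the 17 alternatives.

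**Figure D3:**
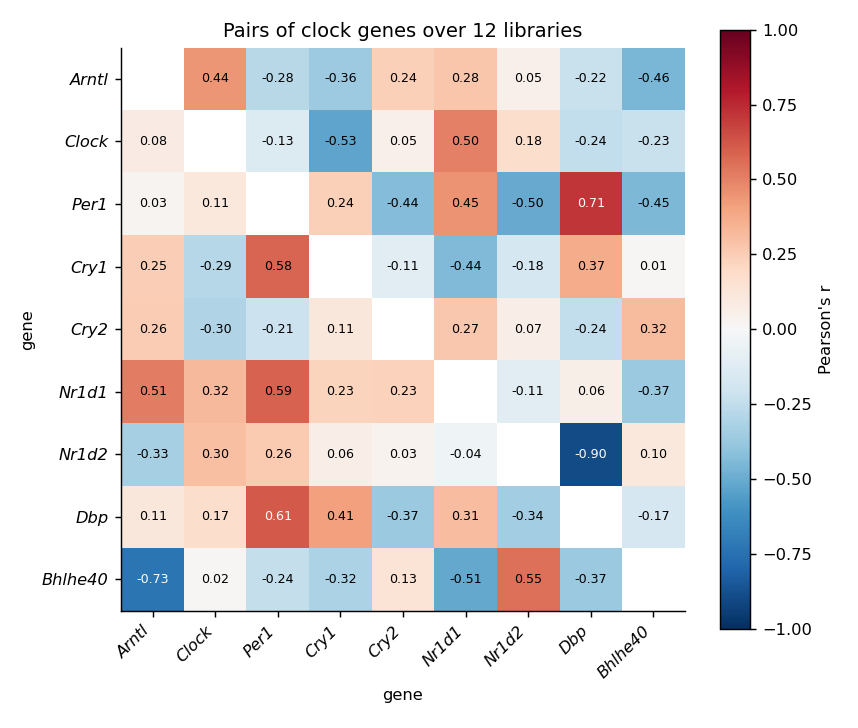
Pearson's r between pairs of the 9 tested clock genes, on log2(FPKM + 1); both axes list genes, the lower left triangle uses the 12 libraries as they are and the upper right uses deviations from group means. *Per1* and *Dbp* are at 0.61 and 0.71, and most other pairs lie nearer to 0.

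Among 33 further genes of the clock, 24 were tested. With TVA in siNTC cells 2 of the 24 rose and 0 fell, *Timeless* and *Klf10*, a share of 8.33% that is close to the 7.38% of all genes called. *Timeless*, which acts at replication forks besides its debated part in the clock, was 4.33, 3.69 and 4.78 FPKM in siNTC and 6.36, 6.41 and 6.36 FPKM in siNTC+TVA cells (difference 0.49, SE 0.0668, limma adjusted p = 0.00122). *Klf10*, a Krüppel-like repressor that is an output of the clock and a target of TGFβ, was 2.69, 2.04 and 2.33 FPKM without and 3.47, 3.09 and 3.82 FPKM with TVA (difference 0.41, SE 0.0828, limma adjusted p = 0.0123, lost in 1 of 19 alternatives, with only the libraries compared, at 0.0924). *Klf10* was the 1 of 24 that rose with TVA in siCreb1 cells too (0.537% of all genes were called), where it was 2.76, 2.48 and 2.76 FPKM without and 3.98, 4.22 and 3.82 FPKM with TVA (difference 0.45, limma adjusted p = 0.0454), a call lost in 15 of 19 alternatives (adjusted p 0.00153 to 0.212). These changes were larger than that of any of the 9 members.

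On knockdown without TVA, 2 of the 24 rose and 1 fell, which is 12.5% against 13.7% of all genes called. *Tsc22d3*, the glucocorticoid-induced leucine zipper GILZ, was 29.9, 31.8 and 30.7 FPKM in siNTC and 23.9, 22.5 and 25.6 FPKM in siCreb1 cells (difference −0.35, SE 0.0497, limma adjusted p = 0.00166). It was also the 1 of 24 that fell on knockdown with TVA (difference −0.22, limma adjusted p = 0.0218, lost in 6 of 20 alternatives), and 0 rose, which is 4.17% against 10.1% of all genes. *Noct*, a rhythmic phosphatase also known as nocturnin, rose from 1.96, 2.04 and 2.06 FPKM to 2.40, 2.55 and 2.50 FPKM (difference 0.21, limma adjusted p = 0.0317, lost in 9 of 19), and *Timeless* rose by 0.30 (limma adjusted p = 0.014, lost in 2 of 20). For the interaction 0 of the 24 were called by limma (2.24% of all genes) and 0 by limma-voom (3.86%). In limma 3 had an unadjusted p under 0.05, against 1657 of all 11550 genes.

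*Tef*, a bZIP activator of the same family as *Dbp*, was named after its values were seen. It was 9.65, 9.02 and 8.89 FPKM in siNTC and 7.88, 8.62 and 8.21 FPKM in siNTC+TVA cells, and 9.41, 9.25 and 9.87 FPKM in siCreb1 and 8.35, 8.59 and 8.30 FPKM in siCreb1+TVA cells. As for *Nr1d2*, the TVA libraries lay below the others in both arms. Libraries with and without TVA did not overlap for 23.9% of all genes in siNTC cells and 17.1% in siCreb1 cells. Averaged over both arms the difference of *Tef* was −0.15 (SE 0.0299, limma adjusted p = 0.0157), and it was called in neither arm alone (limma adjusted p = 0.075 and 0.203). In this average limma called 2 of the 24 further genes higher and 1 lower, which is 12.5% against 5.55% of all genes.

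**Figure D4:**
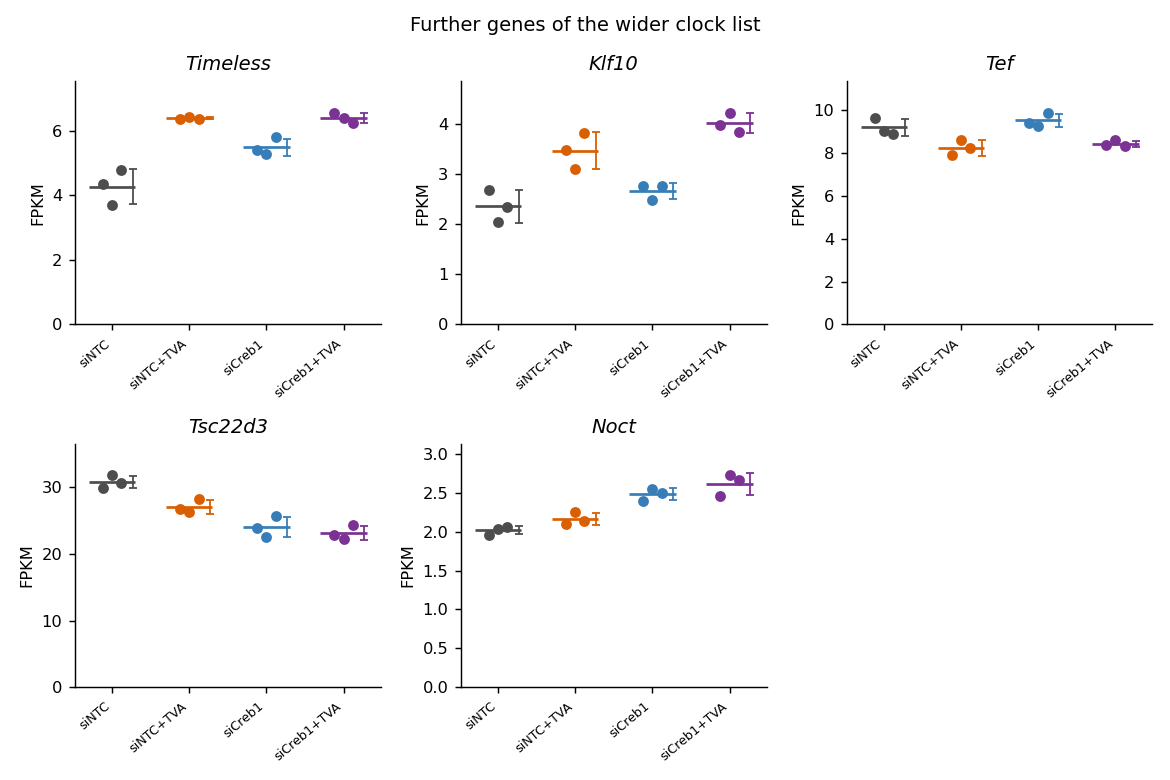
FPKM (vertical axis, from 0, a separate scale per gene) of 5 further clock genes in the 4 groups; points are the 3 libraries of a group, lines the means and bars the SD. *Timeless* and *Klf10* lie higher with TVA in siNTC cells, *Tsc22d3* lies lower in siCreb1 cells, and *Tef* lies lower with TVA under both siRNAs.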

How the data were processed

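RNA-seq was measured in 12 libraries of mouse CD8+ T cells, 3 in each of 4 groups, prepared with a SMARTER mRNA kit. The authors deposited FPKM values per gene and library, which are scaled by gene length and library size. Per the submitters' notes the genome was GRCm38 (mm10), and the aligner, the counting program and the use of strand are not given in the sources used here. FPKM times gene length came out as whole reads (within 0.05) for at least 99.995% of genes above 0, which gave 16660234 to 24602484 reads per library.

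In R 4.3.3, limma 3.58.1 was fitted to log2(FPKM + 1) of the genes averaging 1 FPKM or more, with a group mean per condition and eBayes with trend. P-values were two-sided and Benjamini-Hochberg adjusted over the 11550 genes, with a threshold of 0.05. The fold changes are on the log2(FPKM + 1) scale, which understates the change of low genes. The 6 pairs of groups and the interaction were taken from the same fit. Groups called not overlapping share no value between their ranges. Exact permutation tests were used for *Creb1* and *Per2*. Intervals are at 95%, and counting error was taken as Poisson. The fit was tested on simulated data, with changes larger than any difference of the tested members. That test therefore does not show how often differences of their size are found. Promoter letters were searched in Python 3.11.15, and figures were drawn with matplotlib 3.10.9.

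The alternatives were a pseudocount of 0.1, no filter, a mean of at least 5 FPKM, TPM, quantile normalization, the replicate number as a block, limma-voom on the recovered reads, only the libraries compared, and leaving out each library. The averages over both arms were added after the data were seen. The text names all 10 members and *Creb1*, from a wider list of 33 clock genes at most 4 that rose and 4 that fell per comparison among those called with no overlap, and the 5 genes most like *Per1*. Of the wider list, 1 gene is not reported here. The members and lists were chosen with earlier results on these data known.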

Additional observations from a re-analysis of the deposited data

How the results depend on the processing

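The counts of called members moved with several settings. With TVA in siNTC cells 1 member was called (*Nr1d2*), against 0 without the filter, with TPM, with quantile normalization, with the replicate block and with only the libraries compared, and 0 to 1 on leaving out 1 library. Over all genes 852 were called in the main fit. The counts were 556 with TPM, 770 with quantile normalization, 687 with the block and 368 with only the libraries compared. Without the filter 563 of 29700 genes were called. For knockdown without TVA the count was 0, against 1 with TPM and 1 with limma-voom (*Bhlhe40* in both), and 0 to 1 on leaving out 1 library. Over all genes it was 1586 (753 higher, 833 lower), against 1205 with TPM (908 higher, 297 lower) and 1983 with limma-voom (1178 higher, 805 lower). The median difference over all genes was −0.001 in the main fit, 0.043 with TPM and 0.017 with limma-voom. For knockdown averaged over both conditions the count of members was 0, against 1 with a mean of at least 5 FPKM (*Bhlhe40*), 2 with TPM and 2 with limma-voom (*Nr1d2* and *Bhlhe40* in both), and 0 to 1 on leaving out 1 library. Over all genes it was 2372 (1101 higher, 1271 lower), against 2079 of 7480 at 5 FPKM (824 higher, 1255 lower). It was 2056 with TPM (1615 higher, 441 lower) and 2719 with limma-voom (1610 higher, 1109 lower). The other 4 counts of members did not move, and the cause of these changes was not tested. Fewer genes are tested at 5 FPKM, where *Cry2*, *Clock*, *Arntl* and *Nr1d1* gave no value. The labels do not say whether the replicate numbers pair libraries across groups. Same-numbered libraries had correlations of deviations over all tested genes between −0.06 and 0.06 over 18 pairs. Such values cannot exclude a pairing that affects few genes. With the replicate block, no other count of called members moved. With limma-voom the number of further clock genes called was 5 against 2 for TVA in siNTC cells, 5 against 3 for knockdown without TVA and 2 against 1 for knockdown with TVA, and the counts over all genes were also higher (1013 against 852, 1983 against 1586 and 1532 against 1172). With only the libraries compared the number of further clock genes called was 1 in each of the first 2 comparisons. The counts over all genes were lower there too, at 368 and 817.

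Differences that changed sign were not called in either analysis, and those of *Per2* carry no test. With TPM these were *Per1* (0.010) and *Dbp* (0.0085) for averaged knockdown, *Clock* for knockdown without TVA (0.014), *Nr1d1* (0.0057) for knockdown with TVA, and the *Nr1d2* interaction (0.0022). With quantile normalization they were *Cry2* for knockdown without TVA (−0.030), *Timeless* (−0.0062) for knockdown with TVA, the *Nr1d2* interaction (0.0017), and TVA for *Dbp* averaged (−0.0057) and *Bhlhe40* in siNTC cells (−0.0064). The *Nr1d2* interaction was 0.00065 with limma-voom, and *Bhlhe40* with TVA in siNTC cells was −0.00021 with a pseudocount of 0.1, where *Per2* for averaged knockdown was −0.0045.

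Leaving out 1 library gave these ranges where the sign changed. For TVA in siNTC cells they were −0.11 to 0.044 (*Arntl*), −0.053 to 0.058 (*Bhlhe40*), −0.0049 to 0.067 (*Cry2*) and −0.17 to 0.027 (*Per2*). For TVA in siCreb1 cells they were −0.087 to 0.0063 (*Per1*) and −0.043 to 0.15 (*Nr1d1*). For averaged TVA they were −0.020 to 0.055 (*Arntl*), −0.031 to 0.0073 (*Clock*), −0.061 to 0.0015 (*Cry2*) and −0.035 to 0.047 (*Dbp*). For knockdown without TVA they were −0.061 to 0.0093 (*Clock*), −0.046 to 0.080 (*Cry2*) and −0.017 to 0.18 (*Per2*). For knockdown with TVA they were −0.010 to 0.076 (*Per1*), −0.065 to 0.0066 (*Nr1d1*) and −0.014 to 0.017 (*Timeless*). For averaged knockdown they were −0.071 to 0.011 (*Dbp*) and −0.054 to 0.046 (*Per2*). For the interaction they were −0.032 to 0.035 (*Nr1d2*), −0.14 to 0.045 (*Creb1*), −0.036 to 0.10 (*Klf10*), −0.035 to 0.019 (*Noct*) and −0.049 to 0.013 (*Tef*).

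With 3 libraries per group, differences of the members smaller than the distance from an estimate to the end of its interval could not be told from 0, and for *Per2* the depth of 47 to 116 reads per library adds to that limit.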
